A study of Mus musculus with 6 samples.

Results

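Translation initiation factors are the proteins that bring the initiator tRNA, the mRNA and the ribosomal subunits together before protein synthesis starts. Their genes were chosen here by symbol alone: *Eif* followed by a digit and then only lower-case letters or digits. Of the 55364 genes in the table, 58 had such a symbol, and 56 remained once the sex-linked pair *Eif2s3x* and *Eif2s3y* was left out. The 10 symbols that carry the pseudogene mark -ps do not have this form and were left out as well. The 56 genes were split by factor: 5 for eIF1 and eIF1A, 4 for eIF2, 5 for its exchange factor eIF2B, 4 for the eIF2 kinases, 14 for eIF3, 5 for eIF4A, 2 for eIF4B and eIF4H, 4 for eIF4E, 4 for proteins that bind eIF4E, 3 for eIF4G, 2 for eIF5A, 1 each for eIF5, eIF5B and eIF6, and 1, *Eif2c5*, whose symbol is an older Argonaute name and whose annotated product is a long noncoding RNA.

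These genes were measured by RNA-seq in mouse morulae, the compacted embryos that precede the blastocyst, after knockdown (KD) of *Yy1*, a zinc finger transcription factor. Both groups were BDF1 x BDF1 embryos made by in vitro fertilization, injected as zygotes in the cytoplasm with siRNA (10 µM for *Yy1*), cultured in KSOM and frozen at 64 h post insemination, and the groups differed in the label control knockdown (control KD) against *Yy1* knockdown (*Yy1* KD). Each group had 3 libraries, each made with the SMART-Seq stranded kit from a pool of 10 morulae of unrecorded sex. An siRNA lowers a transcript and leaves the gene in place, each pool averages its embryos, and no label says whether the pools came from separate fertilizations, so p-values measure only the spread between these libraries. The question for these genes was which of them differed in level between the groups.

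In the canonical pathway, eIF1, eIF1A, eIF3, eIF5 and the complex of eIF2 with GTP and initiator tRNA gather on the small ribosomal subunit. The cap of the mRNA is bound by eIF4E, which joins the scaffold eIF4G and the helicase eIF4A, and the loaded subunit then scans for a start codon before eIF5B brings in the large subunit. Exchange of GDP for GTP on eIF2 by eIF2B is the step that the eIF2 kinases block under stress. The joining of eIF4E to eIF4G is the step that the eIF4E-binding proteins block when nutrients are short. In mouse embryos this machinery first translates maternal mRNA and then the transcripts of the embryo's own genome.

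The target of the siRNA was checked first. *Yy1* stood at 96.0, 100.2 and 89.8 TPM (transcript levels: read pairs on a gene per exon length, scaled to sum to 1000000 in a library) in control KD and at 8.73, 8.90 and 8.32 TPM in *Yy1* KD libraries, which is 9.07% of the control mean. Between 12109124 and 25066314 read pairs per library followed from TPM times exon length, and the 17353 genes that reached 1 TPM in 3 or more of the 6 libraries were tested. All 10 morula and early lineage markers (such as *Pou5f1*, *Nanog* and *Cdx2*) exceeded 1 TPM in every library, with sums of 6249 to 6831 TPM in control KD and 6401 to 6685 TPM in *Yy1* KD. Of 8 cumulus and granulosa markers, 5 were at 0 in every library, and the sums were 1.48 to 3.39 TPM and 1.61 to 3.34 TPM, while 6 sperm markers summed to at most 2.26 TPM in any library. The summed TPM of 4 Y-linked genes was 27.7, 40.8 and 24.5 in control KD and 10.1, 11.2 and 7.82 in *Yy1* KD (two-sided exact permutation test, p = 0.1, below which 3 libraries per group cannot go). By group mean, the largest part of this sum was *Ddx3y*, at 22.1 ± 7.27 and 4.58 ± 0.890 TPM (SD, n = 3 each), which was called lower (limma adjusted p = 0.0126). *Uty* was lower without overlap too, at 1.4 ± 0.31 and 0.304 ± 0.146 TPM (SD, n = 3 each). It was not called by limma on TPM (adjusted p = 0.0948), though limma-voom on the read pairs called it lower (adjusted p = 0.00512). The groups overlapped for *Eif2s3y* (6.45 ± 2.05 and 4.15 ± 1.02 TPM, SD, n = 3 each) and *Kdm5d*. In pooled embryos, fewer cells of a type and less RNA per cell cannot be told apart.

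Of the 56 genes, 54 passed the filter on low values and were tested on log2(TPM + 1) with limma. Benjamini-Hochberg adjustment ran over all 17353 genes, and calls were made at an adjusted p under 0.05. The initiation factor genes downregulated in *Yy1* KD morulae were *Eif1ax*, *Eif4g3* and *Eif2b5*, which stood at 38.0%, 36.6% and 70.3% of their control means. The upregulated genes were *Eif4a1*, *Eif3m* and *Eif3b*, which stood at 133%, 132% and 128%. These 3 of 54 in each direction make 5.56%, where 4.2% of all genes tested were called lower and 1.92% higher. Among genes above 100 TPM in control KD, a level that 28 of the 54 exceeded, the shares of all genes were 7.04% lower and 4.78% higher, and 1 of the 28 was called lower and 2 higher, so the count of calls was near the background for genes of this level. The groups did not overlap for 11 genes lower in *Yy1* KD (20.4%, against 17.2% of all genes tested) and for 16 genes higher in *Yy1* KD (29.6%, against 12.9% of all genes tested and 21.8% of genes above 100 TPM).

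The log2 fold change (log2FC, *Yy1* KD minus control KD, with its standard error, SE) had a median of 0.11 over the 54 genes, with 30 positive and 24 negative values, beside a median of -0.02 over all genes tested. With quantile normalization these medians lay closer together, at 0.08 and 0.02. The SEs were small for these abundant transcripts, with a median of 0.09 against 0.21 for all genes tested, and the coefficient of variation among control KD libraries had a median of 5.66% against 17.0%. Genes above 100 TPM in control KD had a median SE of 0.09 and a median coefficient of variation of 7.56%. At an unadjusted p under 0.05, limma placed 14 genes higher (25.9%, against 9.35% of all genes tested) and 10 lower (18.5% against 14.4%) in *Yy1* KD. Of all 1549 genes above 100 TPM in control KD, 287 were higher and 311 lower at this p. Of the 28 initiation factor genes above that level, 9 were higher and 5 lower. With the same model on recovered read pairs (limma-voom), 9 genes were called higher (16.7%, against 4.84% of all genes in that fit) and 6 lower (11.1% against 7.64%). The limma-voom shares among genes above 100 TPM were not computed. Without the filter on low values, which tests more genes, *Eif1ax* and *Eif4g3* kept their calls and *Eif2b5*, *Eif4a1*, *Eif3b* and *Eif3m* lost them (limma adjusted p = 0.055, 0.0651, 0.0791 and 0.0834).

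**Figure D1:**
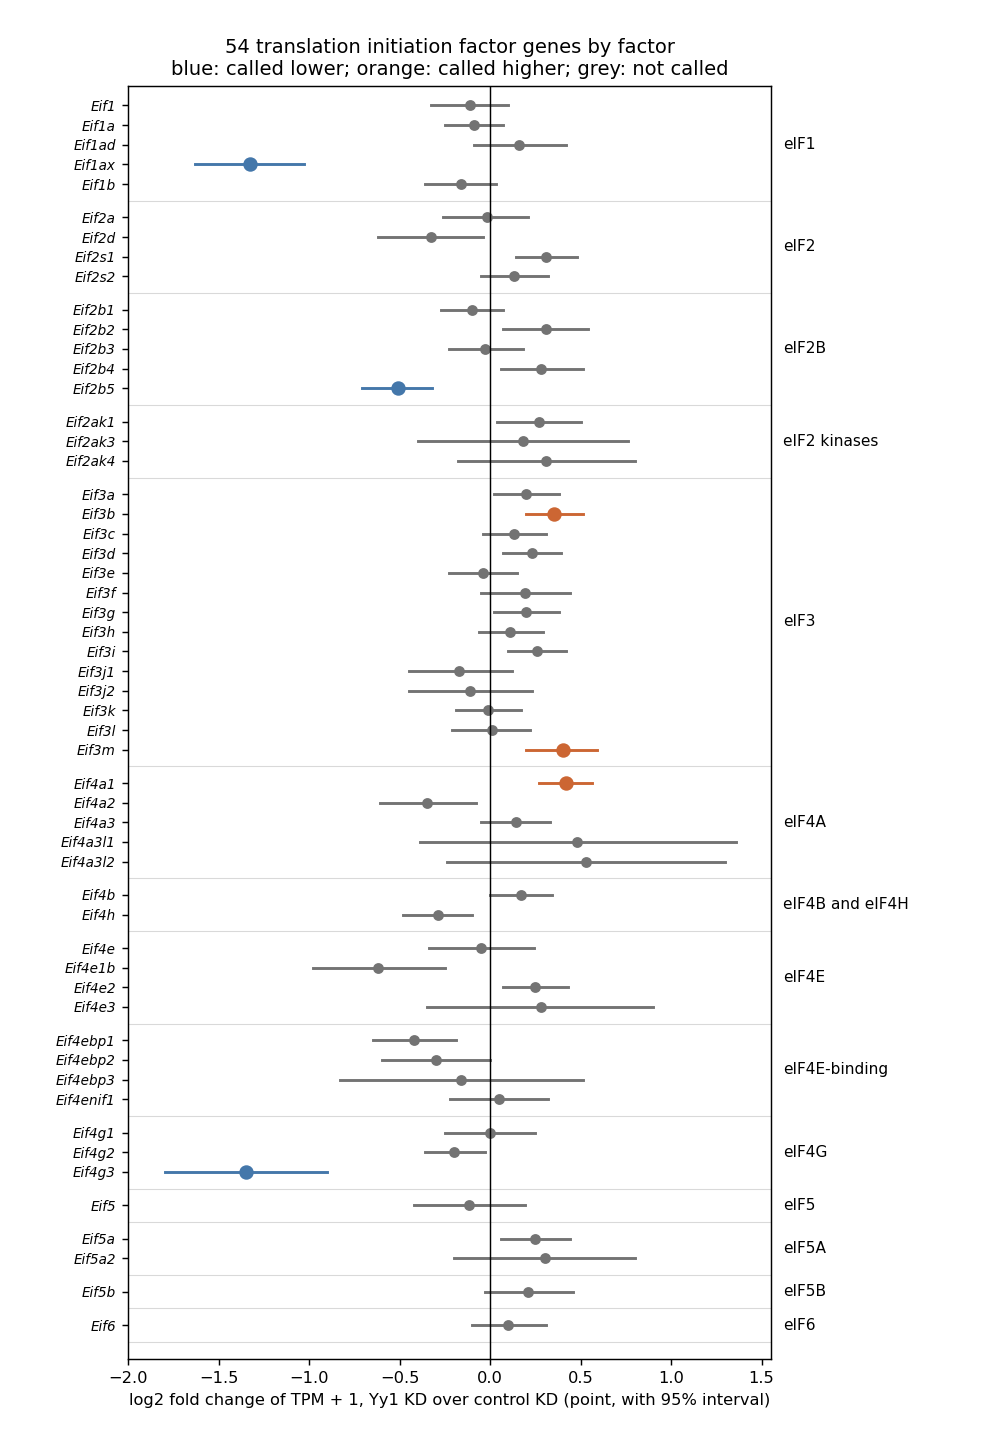
Log2 fold change of TPM + 1 of the 54 tested initiation factor genes, *Yy1* KD over control KD (horizontal axis), ordered by factor. Points are limma estimates from 3 libraries per group and lines their 95% intervals; *Eif1ax* at -1.33 and *Eif4g3* at -1.35 lie apart from the other genes, which lie between -0.62 and 0.53.

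The promoters of these genes were searched for the core of the YY1 consensus, since *Yy1* was the gene knocked down. The motif was spelled GCCATNTT, or AANATGGC when read on the other strand, and windows from 250 bases before to 50 bases after each RefSeq transcription start (GRCm38.p6) were used. A window was found for 43 of the 56 genes, and 7 of the 43 (16.3%) held the motif, beside 1881 of 27025 genes (6.96%) in the whole table. The stretches are printed from RefSeq, on the strand of the gene, with the motif in capitals, because they show which genes carry these letters and where. Positions count from 1 at the annotated start, with negative positions before it.
*Eif4g3* (chr4:137993476-137993505, plus strand, motif at 32): gcggccgcagcGCCATGTTggatgctctgc
*Eif4a1* (chr11:69672571-69672600, minus strand, motif at -166): tgctgggttccAAGATGGCtgccccgccgc
*Eif1b* (chr9:120492610-120492639, plus strand, motif at 16): acgcggcgccgGCCATTTTgtgcgagaagc
*Eif2b4* (chr5:31193295-31193324, minus strand, motif at -174): cagcccagctcGCCATTTTggtgggcctga
*Eif2s2* (chr2:154893119-154893148, minus strand, motif at -231): gttaaacctgaAAAATGGCcccaaattcac
*Eif3f* (chr7:108934418-108934447, plus strand, motif at 15): tctttctcggcAAGATGGCttctccggccg
*Eif4e* (chr3:138527283-138527312, plus strand, motif at 27): cagatcgatctAAGATGGCgactgtggaac
The letters AANATGGC include an ATG, and in *Eif3f* and *Eif4e* that ATG is an annotated start codon. Of the genes called in *Yy1* KD morulae, 1 of 3 downregulated (*Eif4g3*) and 1 of 3 upregulated (*Eif4a1*) had the motif, and the windows of *Eif1ax*, *Eif2b5*, *Eif3b* and *Eif3m* held no match. Of the 35 tested genes that had a window and were not called, 5 (14.3%) held it. A match describes letters in a window, and no binding was measured.

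*Eif1ax* had the change with the lowest adjusted p. It is one of a pair of genes for eIF1A, the small protein that sits in the aminoacyl site of the small subunit and helps to recognise the start codon, and it occupies bases 159372178 to 159389928 of the X chromosome (plus strand, GRCm38). Control KD libraries held 38.6, 31.6 and 39.5 TPM of it, and *Yy1* KD libraries held 12.8, 13.7 and 15.2 TPM. Every *Yy1* KD value was below the lowest control KD value by more than the spread within either group. The mean of 36.5 ± 4.33 TPM became 13.9 ± 1.22 TPM (SD, n = 3 each), with log2FC -1.33, SE 0.13 and a Benjamini-Hochberg adjusted p of 0.00695 from limma. It was the only initiation factor gene whose call stood in all 6 fits without 1 library (limma adjusted p from 0.0186 to 0.0464).

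The autosomal partner *Eif1a*, on chromosome 18, stood at 95.3, 94.7 and 98.3 TPM in control KD and at 93.2, 86.6 and 90.4 TPM in *Yy1* KD libraries. Its values were lower in *Yy1* KD without overlap, but by little (log2FC -0.09, SE 0.07, limma adjusted p = 0.462), and it was not called. The closest coding sequences of both genes were of 432 nt and 85.6% identical, and their transcripts shared no stretch longer than 28 nt, far below the read length of 150 nt. *Eif1ax* made up 28.8%, 25.0% and 28.7% of the summed TPM of both genes in control KD libraries and 12%, 13.7% and 14.4% in *Yy1* KD libraries. The difference of the mean shares was -14.1 percentage points (two-sided exact permutation test, p = 0.1). A share within a pair does not depend on how the rest of the library is scaled. Of 532 tested genes of the X chromosome, 22 were called lower and 15 higher, with a median log2FC of -0.00, and *Xist* ranged from 28.2 to 84.2 TPM in control KD and from 26.4 to 58.5 TPM in *Yy1* KD. The part of the difference in *Ddx3y* and the Y-linked sum in the change of *Eif1ax* was not tested.

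The remaining eIF1 genes were not called. *Eif1*, which holds the scanning complex open until a start codon is met, was at 336 ± 16.7 TPM in control KD against 311 ± 29.4 TPM after *Yy1* KD (SD, n = 3 each). Its paralogue *Eif1b* was at 37.2 ± 1.58 and 33.0 ± 0.618 TPM (SD, n = 3 each), without overlap of the groups, and made up 9.97% and 9.66% of the pair. *Eif1ad*, a protein with an eIF1A domain, was at 59.4 ± 2.23 and 67.0 ± 8.51 TPM (SD, n = 3 each), with overlap. In summed TPM, the eIF1 genes together made 91.1% of the control, with overlapping groups (two-sided exact permutation test, p = 0.2).

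*Eif4g3* had the lowest fold change of all initiation factor genes. It encodes a second large scaffold beside eIF4G1 that binds eIF4E, eIF4A and eIF3 at once, and it occupies bases 137993022 to 138208508 of chromosome 4 (plus strand, GRCm38). It was at 20.7, 17.5 and 21.3 TPM in control KD and at 8.88, 7.57 and 5.36 TPM in *Yy1* KD libraries. The highest *Yy1* KD value was well under the lowest control KD value. The mean of 19.9 ± 2.04 TPM became 7.27 ± 1.78 TPM (SD, n = 3 each), with log2FC -1.35, SE 0.19 and a Benjamini-Hochberg adjusted p of 0.0156 from limma. The call was lost without control KD replicate 1, 2 or 3 or *Yy1* KD replicate 2 (adjusted p = 0.0646, 0.0524, 0.0704 and 0.0545) in the same test, and the log2FC stayed between -1.49 and -1.18 in the fits without 1 library.

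The major scaffold *Eif4g1* was among the most abundant members, at 504 ± 53.5 TPM in control KD against 503 ± 44.1 TPM after *Yy1* KD (SD, n = 3 each), with a 95% interval of the log2FC from -0.25 to 0.25. *Eif4g2* (also DAP5), which lacks the site for eIF4E and serves initiation without the cap complex, was at 385 ± 11.7 and 335 ± 18.1 TPM (SD, n = 3 each), without overlap of the groups, and was not called (log2FC -0.20, limma adjusted p = 0.145). *Eif4g3* was the minor scaffold in both groups, and its share of the summed TPM of the 3 genes was 2.33%, 1.99% and 2.23% in control KD and 0.975%, 0.953% and 0.645% in *Yy1* KD libraries. *Eif4g1* and *Eif4g3* shared no stretch longer than 19 nt.

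*Eif2b5* encodes the epsilon subunit of eIF2B, which carries the catalytic site for nucleotide exchange on eIF2. It occupies bases 20498817 to 20509323 of chromosome 16 (plus strand). Its level was 262, 265 and 250.2 TPM in control KD and 199, 168 and 180.2 TPM in *Yy1* KD libraries. The lowest control KD library was above the highest *Yy1* KD library. The mean of 259 ± 8.05 TPM became 182 ± 15.8 TPM (SD, n = 3 each), with log2FC -0.51, SE 0.08 and a Benjamini-Hochberg adjusted p of 0.0233 from limma. Only without *Yy1* KD replicate 1 was the call kept among the fits that left out 1 library (adjusted p = 0.0346), with 0.0792, 0.0715 and 0.0753 without control KD replicate 1, 2 and 3, and 0.0739 and 0.0672 without *Yy1* KD replicate 2 and 3.

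The other eIF2B genes had smaller differences. *Eif2b2* (the beta subunit) was at 46.8, 46.5 and 49.1 TPM in control KD and at 52.4, 65.6 and 59.4 TPM in *Yy1* KD libraries, higher without overlap. *Eif2b4* (delta) was higher without overlap too, at 80.1 ± 2.21 and 97.9 ± 10.5 TPM (SD, n = 3 each). Neither was called (limma adjusted p = 0.126 and 0.134). *Eif2b1* (alpha) and *Eif2b3* (gamma) had overlapping groups and log2FC values of -0.10 and -0.03. The mean levels of the 5 subunit genes in control KD, per exon length, ran from 41.2 TPM for *Eif2b3* to 259 TPM for *Eif2b5*, and in *Yy1* KD from 40.4 TPM for *Eif2b3* to 182 TPM for *Eif2b5*, so *Eif2b5* was the highest of them in both groups. Their summed TPM was 574.8 ± 15.5 and 516.4 ± 18.4 (SD, n = 3 each), 89.8% of the control, without overlap (exact permutation test, two-sided, p = 0.1).

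**Figure D2:**
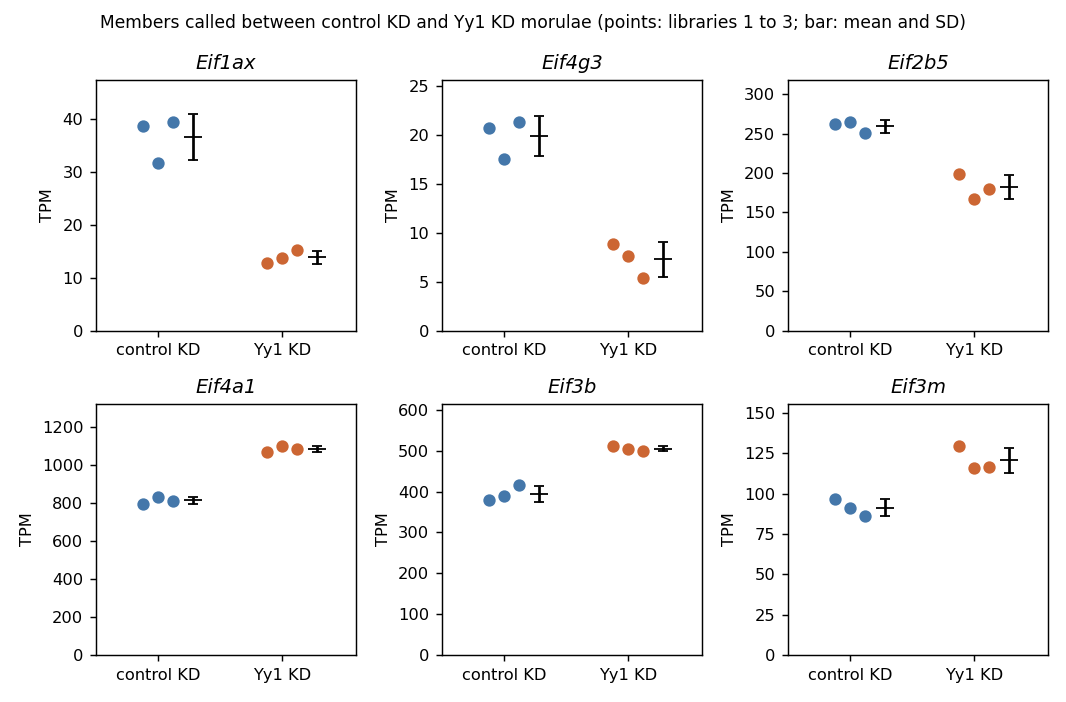
TPM per library (vertical axes, from 0) of the 6 called initiation factor genes in control KD and *Yy1* KD morulae. Points are libraries 1 to 3 of a group and bars the mean with its SD; in each panel the 3 libraries of one group lie apart from the 3 of the other, from 12.8 to 15.2 TPM against 31.6 to 39.5 TPM for *Eif1ax* and from 1069 to 1100.0 TPM against 796 to 832 TPM for *Eif4a1*.

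*Eif4a1* was the upregulated member with the largest fold change. It encodes the main eIF4A, the RNA helicase that opens structure ahead of the scanning subunit, and it occupies bases 69666936 to 69672423 of chromosome 11 (minus strand). It was at 796, 832 and 812 TPM in control KD and at 1069, 1100.0 and 1086 TPM in *Yy1* KD libraries. Each group was tight, and the gap between the groups was several times their SD. The mean of 813 ± 17.9 TPM became 1085 ± 15.4 TPM (SD, n = 3 each), with log2FC 0.42, SE 0.06 and a Benjamini-Hochberg adjusted p of 0.0192 from limma. Without 1 library the call was kept only when *Yy1* KD replicate 1 was left out (adjusted p = 0.0461). Without control KD replicate 1, 2 or 3 the adjusted p was 0.0731, 0.0567 and 0.0716, and without *Yy1* KD replicate 2 or 3 it was 0.0759 and 0.061.

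The annotation places 2 small nucleolar RNA genes (*Gm22988* and *Gm24029*) on exonic sequence of *Eif4a1*, on the same strand, and it also holds a near copy of the gene elsewhere. *Eif4a-ps4*, a processed pseudogene at bases 60703932 to 60705149 of chromosome 1 (plus strand), was left out by the rule on symbols and is named here after its values were seen. Its 1218 nt differed from an *Eif4a1* transcript at 1 position, and 86.0% of its windows of 150 nt also occur in *Eif4a1* transcripts. Reads from one can therefore be counted on the other or, where multi-mapped reads were not counted, on neither. It was listed at 532, 586 and 552 TPM in control KD and at 791, 738 and 763 TPM in *Yy1* KD libraries, and was called higher (log2FC 0.46, SE 0.07, limma adjusted p = 0.0203). The level of *Eif4a1* alone is therefore uncertain. The sum of both rows went from 1370.1 ± 45.3 to 1848.7 ± 11.2 TPM (SD, n = 3 each), 135% of the control, and the share of the sum on the pseudogene was 40.6% ± 0.65 and 41.3% ± 1.19 (SD, n = 3 each), with overlapping groups. Each row is scaled by its own exon length, so the sum is not a level of *Eif4a1*.

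*Eif4a2*, the second cytoplasmic eIF4A helicase, had the opposite sign. It was at 231, 180.0 and 218 TPM in control KD and at 160, 156 and 178 TPM in *Yy1* KD libraries. The highest *Yy1* KD library was just under the lowest control KD library. The log2FC was -0.35 (SE 0.11, limma adjusted p = 0.12), so it was not called on TPM, though limma-voom on recovered read pairs called it lower (adjusted p = 0.045). As a share of *Eif4a1* and *Eif4a2* together it was 22.5%, 17.8% and 21.2% in control KD and 13%, 12.4% and 14.1% in *Yy1* KD libraries, a difference of -7.35 percentage points (two-sided exact permutation test, p = 0.1). This sum leaves out *Eif4a-ps4*, so the size of the share is as uncertain as the level of *Eif4a1*. Exons of *Eif4a2* overlap 5 annotated small nucleolar RNA genes and a microRNA gene on its strand and *Rfc4* on the other, and the counting ignored strand and divided read pairs among overlapping genes.

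*Eif4a3*, a core protein of the exon junction complex, was at 277 ± 7.25 and 306 ± 24.4 TPM (SD, n = 3 each), with overlap. The related copies *Eif4a3l1* and *Eif4a3l2* were low and scattered. *Eif4a3l2*, which had the largest fold change among the eIF4A genes, was at 2.62, 2.56 and 4.53 TPM in control KD and at 3.75, 8.14 and 3.93 TPM in *Yy1* KD libraries. A single *Yy1* KD library stood above the rest, and the log2FC of 0.53 had a SE of 0.32 (limma adjusted p = 0.381). The transcript of *Eif4a3* differed from those of *Eif4a3l1* and *Eif4a3l2* (93.3% and 87.5% identical), with shared stretches of at most 119 and 151 nt.

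**Figure D3:**
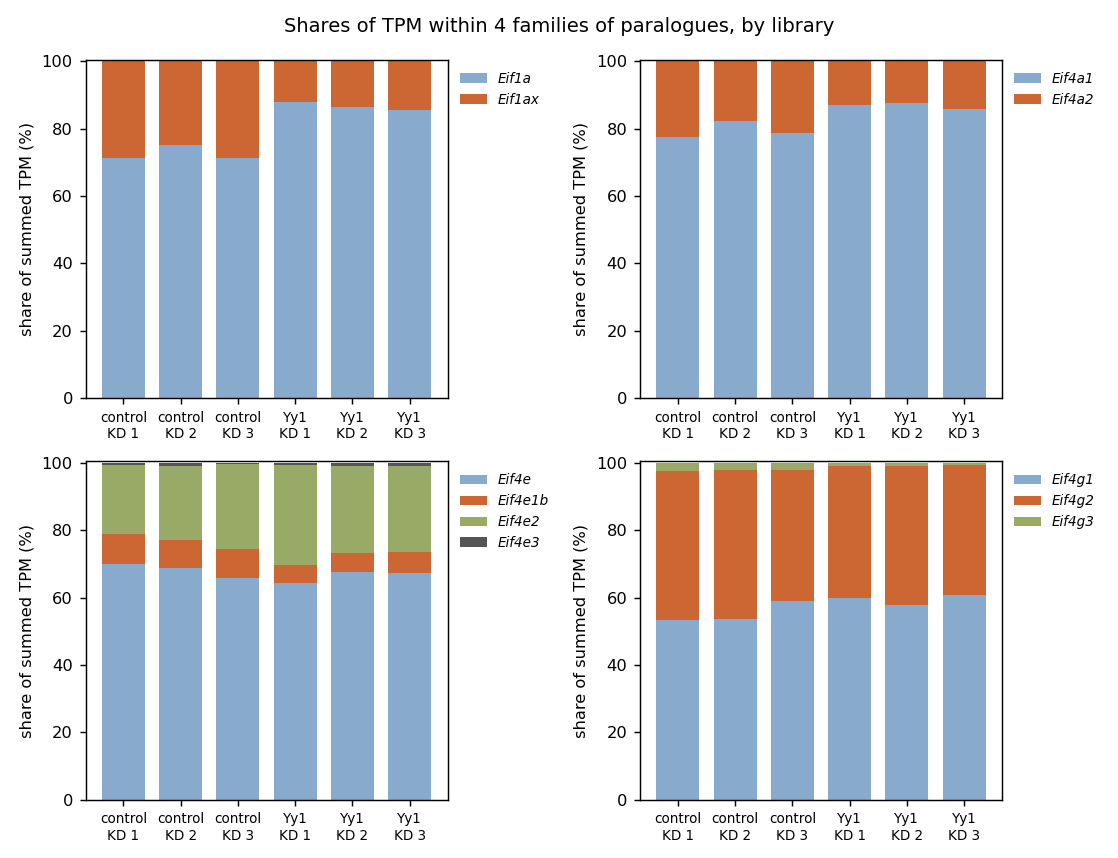
Share of the summed TPM (vertical axes, percent) that each gene of 4 families of initiation factor paralogues took in each of the 6 libraries. The sum of *Eif4a1* and *Eif4a2* leaves out *Eif4a-ps4*. The share of *Eif1ax* was 25.0% to 28.8% in control KD and 12% to 14.4% in *Yy1* KD, that of *Eif4a2* 17.8% to 22.5% and 12.4% to 14.1%, that of *Eif4e1b* 8.34% to 9.03% and 5.17% to 6.05%, and that of *Eif4g3* 1.99% to 2.33% and 0.645% to 0.975%.

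The eIF3 complex, the largest initiation factor, scaffolds the small subunit and the mRNA, and 14 of its genes were tested. *Eif3b* and *Eif3m* were called higher and 0 were called lower (limma; at an unadjusted p under 0.05, 6 higher and 0 lower, and with limma-voom 6 higher and 0 lower). The groups did not overlap for 7 of the 14 (50%), all higher in *Yy1* KD, where 12.9% of all genes tested and 21.8% of those above 100 TPM were higher without overlap. The shares of all genes called higher were 1.92% with limma and 4.84% with limma-voom. Among genes above 100 TPM in control KD, limma called 4.78% higher, and the limma-voom share was not computed. The median log2FC was 0.16, with 10 positive values and a range from -0.17 to 0.40. Of the 4 negative values, 2 belonged to *Eif3j1* and *Eif3j2*, which encode the loosely bound j subunit, and *Eif3k*, at -0.01, turned to 0.02 with median-ratio scaling of the libraries. Quantile normalization gave lower log2FC values for *Eif3a*, *Eif3b*, *Eif3c* and *Eif3g* (0.13, 0.29, 0.05 and 0.12). It gave higher values for others, such as *Eif3d*, *Eif3f*, *Eif3i* and *Eif3m* (0.26, 0.24, 0.30 and 0.43).

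*Eif3b*, an RNA-binding core subunit on which the complex is built, occupies bases 140419328 to 140443360 of chromosome 5 (plus strand). It was at 380, 388 and 417 TPM in control KD and at 512, 503 and 500 TPM in *Yy1* KD libraries. The *Yy1* KD libraries were all above the highest control KD library, and closer to each other than the control KD libraries were. The mean of 395 ± 19.8 TPM became 505 ± 6.16 TPM (SD, n = 3 each), with log2FC 0.35, SE 0.07 and a Benjamini-Hochberg adjusted p of 0.0326 from limma. Each of the 6 fits without 1 library lost the call (adjusted p from 0.0716 to 0.105, for control KD replicate 3 and *Yy1* KD replicate 2 left out), as did quantile normalization (adjusted p = 0.066).

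*Eif3m*, a subunit of the PCI and MPN core, occupies bases 104999656 to 105017080 of chromosome 2 (minus strand) and shares 82 nt of exonic sequence with *Ccdc73* on the other strand. It was at 96.8, 90.9 and 86.2 TPM in control KD and at 130, 116 and 116 TPM in *Yy1* KD libraries. All *Yy1* KD libraries were above all control KD libraries. The mean of 91.3 ± 5.27 TPM became 121 ± 7.67 TPM (SD, n = 3 each), with log2FC 0.40, SE 0.08 and a Benjamini-Hochberg adjusted p of 0.0411 from limma. The call was lost in each of the 6 fits without 1 library, with adjusted p from 0.0849 (without control KD replicate 1) to 0.131 (without control KD replicate 3).

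Of the eIF3 genes that were not called, *Eif3i*, *Eif3d*, *Eif3a*, *Eif3g* and *Eif3f* were higher in *Yy1* KD without overlap. *Eif3i*, a subunit of the module with eIF3b and eIF3g, was at 147, 147 and 145 TPM in control KD and at 180.2, 182 and 164 TPM in *Yy1* KD libraries (log2FC 0.26, limma adjusted p = 0.0779). *Eif3a*, the largest subunit, was at 679 ± 37.3 and 781 ± 42.4 TPM, and *Eif3d*, which can bind the cap of some mRNAs, at 187 ± 4.94 and 220.0 ± 10.9 TPM (SD, n = 3 each). The level of *Eif3c*, the most abundant of the eIF3 genes, was 835 ± 53.7 and 916 ± 23.8 TPM (SD, n = 3 each), with overlap. *Eif3e*, *Eif3h*, *Eif3k* and *Eif3l* had overlapping groups and log2FC values from -0.04 to 0.11. For *Eif3l* the 95% interval of the log2FC ran from -0.21 to 0.22, and for *Eif3k* from -0.19 to 0.17.

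The summed TPM of the eIF3 genes was 3934.9, 3811.4 and 3848.2 in control KD and 4483.3, 4372.7 and 4219.3 in *Yy1* KD libraries. The groups did not overlap, and the *Yy1* KD mean was 113% of the control (two-sided exact permutation test, p = 0.1). *Eif3j1* and *Eif3j2* were at 65.6 ± 2.24 and 22.7 ± 2.40 TPM in control KD and at 58.8 ± 9.37 and 21.0 ± 3.03 TPM in *Yy1* KD (SD, n = 3 each). Their coding sequences differed by 6 edits over 789 nt and 77.1% of the 150-nt windows of *Eif3j2* occur in *Eif3j1*, so the split between them is uncertain.

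The core subunits of eIF2 had positive differences. *Eif2s1* encodes the alpha subunit, on which the kinases act, and was at 200.4, 194 and 181 TPM in control KD and at 250.1, 229 and 235 TPM in *Yy1* KD libraries. Its groups did not overlap, and it was just over the threshold (log2FC 0.31, SE 0.07, limma adjusted p = 0.0566). It was called higher with the stricter filter (adjusted p = 0.0442), quantile normalization (0.0494) and limma-voom (0.0104). *Eif2s2*, the beta subunit, was at 824 ± 21.2 and 906 ± 68.2 TPM (SD, n = 3 each), without overlap, and was not called (adjusted p = 0.348, limma). The gamma subunit gene on the X chromosome, *Eif2s3x*, is no member by the rule, and its 224 ± 15.0 and 278 ± 5.36 TPM (SD, n = 3 each) gave a log2FC of 0.31 (limma adjusted p = 0.0545).

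The other genes named for eIF2 encode proteins outside that complex. *Eif2d*, which binds the small subunit in reinitiation and recycling, had the largest absolute fold change of the 4, at 34.1, 43.0 and 44.2 TPM in control KD and 34.4, 30.5 and 30.5 TPM in *Yy1* KD libraries. Control KD replicate 1 lay within the range of the *Yy1* KD libraries, and the log2FC of -0.33 (SE 0.12) had a limma adjusted p of 0.163. *Eif2a*, which can deliver initiator tRNA without eIF2, was at 22.8 ± 1.02 and 22.4 ± 1.46 TPM (SD, n = 3 each), with a 95% interval of the log2FC from -0.26 to 0.21.

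Of the 4 kinases that phosphorylate eIF2, 3 were expressed at a level that could be tested, and 0 were called by limma in either direction (at an unadjusted p under 0.05, 1 higher and 0 lower, and with limma-voom 0 and 0). *Eif2ak1* (HRI, a sensor of heme) was at 19.8, 17.9 and 18.1 TPM in control KD and at 23.3, 21.8 and 22.9 TPM in *Yy1* KD libraries, higher without overlap (log2FC 0.27, adjusted p = 0.146, limma). *Eif2ak4* (GCN2, a sensor of uncharged tRNA) had the largest fold change of the 3, at 4.33, 6.65 and 6.40 TPM in control KD and at 6.11, 8.39 and 7.61 TPM in *Yy1* KD libraries. Its groups overlapped, and the log2FC of 0.31 had a SE of 0.21 (limma adjusted p = 0.417). *Eif2ak3* (PERK, a sensor of stress in the endoplasmic reticulum) ranged from 7.56 to 15.0 TPM in control KD and from 11.6 to 14.9 TPM in *Yy1* KD. *Eif2ak2* (PKR, a sensor of double-stranded RNA) reached at most 0.213 TPM in any library and was not tested, and *Eif2c5* was at 0 in all 6 libraries. *Eif2ak1* took 52.0% and 52.8% of the summed TPM of the 4 kinases, *Eif2ak3* 31.6% and 29.8%, and *Eif2ak4* 16.3% and 17.1% in control KD and *Yy1* KD, all with overlapping groups.

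At the cap, *Eif4e*, the main cap-binding protein, was at 163 ± 15.6 TPM in control KD against 158 ± 20.5 TPM after *Yy1* KD (SD, n = 3 each), with a 95% interval of the log2FC from -0.34 to 0.24. Its paralogue *Eif4e1b*, known from oocytes and early embryos, had the largest absolute fold change of the 4 eIF4E genes. It was at 23.0, 20.01 and 19.4 TPM in control KD and at 10.8, 13.5 and 15.6 TPM in *Yy1* KD libraries. The *Yy1* KD values were all lower, and the log2FC was -0.62 (SE 0.15), but it was not called (limma adjusted p = 0.0663). It was called lower with a mean TPM of at least 5 as the filter (adjusted p = 0.0445) and with limma-voom (adjusted p = 0.0363). As a share of the 4 eIF4E genes it was 9.03%, 8.34% and 8.67% in control KD and 5.17%, 5.48% and 6.05% in *Yy1* KD libraries (two-sided exact permutation test, p = 0.1).

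*Eif4e2* (4EHP), which binds the cap without joining eIF4G and is known for holding back translation, had a share that moved the other way, from 22.5% ± 2.42 to 27.1% ± 2.27 (SD, n = 3 each). Its level was 52.0, 52.6 and 56.3 TPM in control KD and 62.2, 63.4 and 66.1 TPM in *Yy1* KD libraries, higher without overlap, and it was not called (log2FC 0.25, limma adjusted p = 0.105). *Eif4e3* was the lowest of the 4, with 1.01 to 2.08 TPM in control KD and 1.49 to 2.57 TPM in *Yy1* KD libraries. Over the 4 genes 0 were called on TPM (limma; at an unadjusted p under 0.05, 1 higher and 1 lower, and with limma-voom 0 higher and 1 lower), and their summed TPM was 99.3% of the control.

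Of the proteins that bind eIF4E, *Eif4ebp1* (4E-BP1), the inhibitor that mTORC1 releases from eIF4E, was the most abundant. It was at 201, 251 and 227 TPM in control KD and at 166, 161 and 177 TPM in *Yy1* KD libraries. The *Yy1* KD libraries were all below the lowest control KD library, and the log2FC of -0.42 (SE 0.10) was just over the threshold (limma adjusted p = 0.0526). It was called lower with the stricter filter (adjusted p = 0.0404) and with limma-voom (adjusted p = 0.0183). *Eif4ebp2* was at 28.3 ± 2.97 and 22.8 ± 2.53 TPM (SD, n = 3 each), lower without overlap (log2FC -0.30, adjusted p = 0.21, limma). *Eif4ebp3*, at 4.77 to 5.53 and 2.89 to 7.13 TPM, and *Eif4enif1* (4E-T, which carries eIF4E into the nucleus and represses bound mRNA), at 30.0 ± 2.98 and 31.0 ± 2.56 TPM (SD, n = 3 each), had overlapping groups. The shares of the 3 genes for 4E-BP overlapped between the groups, and *Eif4ebp1* took 87.0% ± 1.85 and 85.9% ± 1.98 of their summed TPM (SD, n = 3 each; two-sided exact permutation test, p = 0.5). The summed TPM of the 4 genes was 290.0 ± 25.6 and 226.7 ± 6.76 (SD, n = 3 each), 78.2% of the control, without overlap (exact permutation test, two-sided, p = 0.1).

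The cofactors of the helicase differed in opposite directions. *Eif4h* was at 113, 120.2 and 103 TPM in control KD and at 90.1, 91.9 and 91.4 TPM in *Yy1* KD libraries. Its *Yy1* KD libraries were within 2 TPM of each other and under every control KD library, and it was not called (log2FC -0.29, SE 0.08, limma adjusted p = 0.0815). *Eif4b* was at 272 ± 10.1 and 307 ± 16.5 TPM (SD, n = 3 each), higher without overlap (log2FC 0.17, limma adjusted p = 0.202).

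Of the late factors, 0 were called by limma on TPM (at an unadjusted p under 0.05, only *Eif5a*, higher, which limma-voom called with an adjusted p of 0.0224). *Eif5*, which makes eIF2 hydrolyse its GTP at the start codon, was at 558, 466 and 519 TPM in control KD and at 414, 563 and 454 TPM in *Yy1* KD libraries. The groups overlapped (log2FC -0.12, SE 0.13, limma adjusted p = 0.634). *Eif5b*, which joins the large subunit, was at 271, 220.1 and 236 TPM in control KD and at 273, 306 and 262 TPM in *Yy1* KD libraries. Control KD replicate 1 lay within the *Yy1* KD range (log2FC 0.21, SE 0.10, limma adjusted p = 0.268). *Eif6*, which keeps the large subunit from joining too early, was at 222, 238 and 215 TPM in control KD and 220.2, 246 and 259 TPM in *Yy1* KD libraries, with overlap (log2FC 0.10, SE 0.09, limma adjusted p = 0.519).

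*Eif5a*, the hypusine-carrying protein that acts mostly in elongation, was the most abundant initiation factor transcript by name. It was at 1202, 1379 and 1300.4 TPM in control KD and at 1558, 1578 and 1483 TPM in *Yy1* KD libraries. Its groups did not overlap, and the log2FC was 0.25 (SE 0.08, limma adjusted p = 0.114). With quantile normalization the log2FC of *Eif5a* was 0.12 (limma adjusted p = 0.39). The paralogue *Eif5a2* was at 2.61, 3.70 and 4.37 TPM in control KD and at 4.29, 5.17 and 4.22 TPM in *Yy1* KD libraries. These overlapped (log2FC 0.30, SE 0.21, limma adjusted p = 0.443), and *Eif5a2* took 0.273% and 0.295% of the pair.

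Across all genes for initiation factors, mean levels per exon length in control KD ran from 1.52 to 1294 TPM. The median over the 54 tested genes was 113 TPM, against 8.75 TPM over all genes tested, with 48 above 10 TPM, 28 above 100 TPM and 8 above 500 TPM. The 8 were *Eif5a* (1294 TPM), *Eif3c* (835 TPM), *Eif2s2* (824 TPM), *Eif4a1* (813 TPM), *Eif3a* (679 TPM), *Eif3g* (548 TPM), *Eif5* (515 TPM) and *Eif4g1* (504 TPM). The summed TPM of the 56 genes was 11574.7, 11503.0 and 11512.6 in control KD and 12645.5, 12526.9 and 12186.0 in *Yy1* KD libraries. Every *Yy1* KD sum exceeded every control KD sum, at 108% of the control mean (two-sided exact permutation test, p = 0.1), and the genes took between 1.15% and 1.26% of a library. By factor, the sum was higher without overlap for eIF4A (120%), eIF5A (119%), the eIF2 kinases (119%), eIF3 (113%) and eIF2 (111%), and lower without overlap for eIF2B (89.8%) and the eIF4E-binding proteins (78.2%). A sum follows its most abundant genes, such as *Eif4a1* and *Eif5a*.

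**Figure D4:**
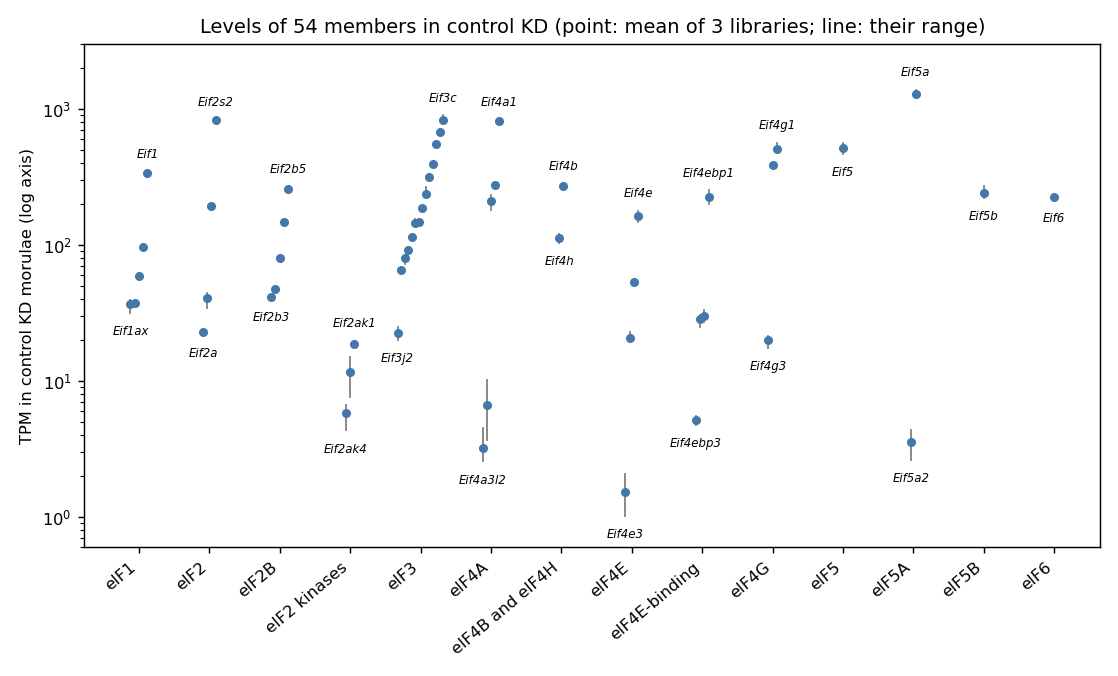
Mean TPM in control KD morulae (vertical axis, log scale) of the 54 tested initiation factor genes, grouped by factor, with lines for the range of the 3 libraries. The lowest and the highest gene of a factor are named where it has several, and otherwise its only gene. The levels run from 1.52 TPM for *Eif4e3* to 1294 TPM for *Eif5a*.

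Shares within 9 families of paralogues were compared, 24 shares in all, and with 3 libraries per group none can reach a p under 0.1, before or after adjustment. The groups did not overlap for 7 of the 24: those of *Eif1a* and *Eif1ax*, *Eif4a1* and *Eif4a2*, *Eif4e1b* and *Eif4e2*, and *Eif4g3*. Shares in a pair mirror each other, so *Eif1a* and *Eif1ax* hold a single difference, as do *Eif4a1* and *Eif4a2*. The sum for the latter pair leaves out *Eif4a-ps4*. Of these 7, the shares lower in *Yy1* KD belonged to genes that were minor in control KD, with 27.5% (*Eif1ax*), 20.5% (*Eif4a2*), 8.68% (*Eif4e1b*) and 2.18% (*Eif4g3*) of the sum, and the major gene of the pair or family (*Eif1a*, *Eif4a1*, *Eif4e* and *Eif4g1*) was the major gene in *Yy1* KD as well. The share of *Eif4e2*, minor in control KD as well (22.5%), was higher in *Yy1* KD (27.1%). Shares with overlapping groups also had lower means, among them that of the major gene *Eif4e* (68.2% and 66.5%) and that of *Eif4g2* (42.5% and 39.7%).

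Genes that act beside the initiation factors were counted in the same fit. Of 56 such genes 55 were tested, and 6 (10.9%) were called higher and 3 (5.45%) lower, against 1.92% and 4.2% of all genes tested, so the share called lower was near the background. The median log2FC was 0.08, beside -0.02 over all genes. These lists were chosen with earlier results of these data known, and their counts are a description. Among 11 genes for ribosome recycling and noncanonical initiation, *Mcts1*, which forms a reinitiation factor with *Denr*, was called higher (28.3 ± 2.55 to 44.7 ± 1.75 TPM, SD, n = 3 each, log2FC 0.65, limma adjusted p = 0.0194), and *Denr* itself was not called (36.9 ± 3.59 and 39.1 ± 3.21 TPM, SD, n = 3 each). Among 15 partners of the cap and the poly(A) tail, 0 were called (limma; at an unadjusted p under 0.05, 4 higher and 0 lower, and with limma-voom 2 higher, *Pabpc4* and *Pdcd4*, the latter a protein that binds eIF4A).

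Among 14 tested genes for elongation and termination, 3 were called higher and 1 lower, beside the same shares of all genes (1.92% and 4.2%). *Eef2*, the translocase of the ribosome, went from 2041 ± 116 to 2760 ± 69.4 TPM (SD, n = 3 each, log2FC 0.44, limma adjusted p = 0.0301). *Eef1d*, a subunit of the exchange factor for eEF1A, had a log2FC of 0.44 (limma adjusted p = 0.0211). *Dohh*, the enzyme for the last step of the hypusine modification of eIF5A, went from 26.4 ± 1.71 to 39.2 ± 3.20 TPM (SD, n = 3 each, log2FC 0.56, limma adjusted p = 0.0313), while *Dhps*, for the first step, was at 32.1 ± 2.82 and 33.5 ± 2.57 TPM (SD, n = 3 each) and was not called. *Hbs1l*, which rescues stalled ribosomes with *Pelo*, was called lower, from 13.7 ± 1.67 to 5.88 ± 0.883 TPM (SD, n = 3 each, log2FC -1.10, limma adjusted p = 0.0178).

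Among 15 genes upstream of the initiation factors, 2 were called higher and 2 lower, again where 1.92% and 4.2% of all genes were. *Akt1s1* (PRAS40), an inhibitor of mTORC1, went from 67.8 ± 8.34 to 123 ± 5.06 TPM (SD, n = 3 each, log2FC 0.86, limma adjusted p = 0.0123). *Mknk2*, a kinase of eIF4E, had a log2FC of 0.80 (limma adjusted p = 0.0391). *Gcn1*, the activator of the kinase from *Eif2ak4*, was called lower (22.5 ± 0.973 to 14.5 ± 0.818 TPM, SD, n = 3 each, log2FC -0.60, limma adjusted p = 0.026), as was *Rps6kb2*, an S6 kinase (log2FC -0.84, limma adjusted p = 0.0339). *Mtor* itself was at 14.5 ± 1.27 and 14.3 ± 1.03 TPM (SD, n = 3 each). Of the called partner genes, *Mcts1*, *Eef2*, *Eef1d*, *Dohh* and *Gcn1* were called in 0 of the 6 fits without 1 library. *Hbs1l*, *Mknk2* and *Rps6kb2* were called in 1 of these fits and *Akt1s1* in 5. With quantile normalization *Eef2* lost its call (log2FC 0.26, limma adjusted p = 0.105), and the other called partner genes kept theirs.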

How the data were processed

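RNA-seq was available for 3 control KD and 3 *Yy1* KD libraries, grouped by their labels. The authors trimmed reads with Trim Galore (version 0.6.7), aligned them to mm10 with HISAT2 (version 2.2.1), removed ribosomal RNA reads with bedtools, counted read pairs on GENCODE genes with featureCounts (version 2.0.1; strand ignored, pairs on several genes divided) and deposited TPM. The options named for genes hold none for multi-mapped reads, while those named for repeats allow them. The authors tested counts with edgeR; TPM does not suit that test, so it was not used here.

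Genes that reached 1 TPM in 3 or more libraries were fitted on log2(TPM + 1) with limma (version 3.58.1, R 4.3.3) with a variance trend and no replicate block, Benjamini-Hochberg adjusted over 17353 genes. A fold change on this scale understates changes of low genes. Single values, sums and shares were compared with two-sided exact permutation tests. The fit was checked on simulated data. The initiation factor genes and the lists beside them were chosen with earlier results of these data known. Values per library were given for every called initiation factor gene and, in each factor, for the gene with the largest absolute fold change. Other members could be named, as could called genes of the partner lists. Coordinates, exon lengths and overlaps came from GENCODE vM21 (GRCm38, the assembly of mm10), which held 55104 of the 55364 identifiers. The paper names a later GENCODE release for its gene quantification. The exon lengths behind the recovered read pairs, and so behind limma-voom, can therefore differ from those of the deposited TPM. TPM times exon length gave 12870854, 25066314 and 18636545 read pairs for control KD and 19150159, 13202264 and 12109124 for *Yy1* KD (pairs on genes, scaled so that low genes hold whole pairs; 88.93% to 90.82% of values under 20 pairs were whole within 0.05). Depth limits mainly genes of a few TPM. Transcripts were compared with edlib (version 1.3.9.post1). Other tools were matplotlib 3.10.9, scipy 1.17.1, numpy 2.4.6, pandas 2.3.3 and Python 3.11.15. Alternatives were limma-voom on recovered read pairs, quantile normalization, median-ratio scaling, no filter, a filter on a mean TPM of at least 5, a pseudocount of 0.1, the replicate number as a block, and each library left out once. Promoter windows were not used for 13 genes. Sequencing dates were not given in the sources used here.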

Additional observations from a re-analysis of the deposited data

How the results depend on the processing

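Counts of called genes moved with the test and with the number of libraries. Without a filter on low values, 0 initiation factor genes were called higher, 270 of all genes lower and 77 higher, and 3 partner genes higher. With a mean TPM of at least 5, 5 initiation factor genes were called lower. With limma-voom on recovered read pairs, 6 were called lower and 9 higher, with 1323 and 838 of all genes and 11 partner genes higher. The median log2 fold change of the initiation factor genes was 0.08 with a mean TPM of at least 5, 0.13 with median-ratio scaling and 0.08 with quantile normalization, beside -0.04, -0.00 and 0.02 over all genes, so quantile normalization brought both medians closer together.

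When 1 library was left out, 1 to 3 initiation factor genes were called lower and 0 to 1 higher, 53 to 326 of all genes lower and 22 to 92 higher, 0 to 1 partner genes lower and 0 to 2 higher, and the median of the initiation factor genes was 0.08 to 0.11. Leaving out control KD replicate 3 gave the lowest counts over all genes.

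The titles number the libraries of both groups, but nothing ties equal numbers, and their deviations from the group means had r of -0.00388, 0.0319 and 0.0747, with control KD replicate 1 nearest to *Yy1* KD replicate 2 (0.0411). With the replicate number as a block, 1 initiation factor gene (*Eif1ax*) was called lower and 0 higher, 218 of all genes lower and 69 higher, and 0 partner genes lower and 1 higher. No fold change of a named gene changed sign past the threshold. A tally of fold changes covered *Yy1*, the called members and partner genes, and the member with the largest absolute fold change in each factor. Of its comparisons with an alternative, 237 stayed on their side of the threshold, 95 were no longer called and 4 became called. Other named genes were outside this tally, among them *Eif2s1*, *Eif4a2* and *Eif5a*, each of which limma-voom called. The 168 comparisons of paralogue shares moved by less than the spread between libraries. The causes were not tested. Depth and 3 libraries per group limit the genes of a few TPM, such as *Eif4e3* and *Eif4a3l2*.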
